A study of Mus musculus with 12 samples.

Results

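The 100 genes described here encode the oxidative phosphorylation machinery of the mitochondrial inner membrane. They were chosen by name from a table of 16335 genes: every protein-coding gene whose symbol begins with Nduf, Uqcr, Cox4 to Cox8 or Atp5, the 4 genes Sdha to Sdhd, and the 13 protein genes of mitochondrial DNA. The 87 nuclear genes comprise 36 of complex I, 4 of complex II, 8 of complex III, 12 of complex IV, 17 of complex V, the pair Ndufa4 and Ndufa4l2, and 8 Ndufaf genes. The Ndufaf proteins help to assemble complex I and are not subunits of it, and they are kept apart below. All 100 had reads in all 12 libraries, and 2 of them, Cox6a2 and mt-Atp8, had a library with under 10 reads. The isoforms Cox4i2, Cox6b2, Cox7a1, Cox7b2, Cox8b and Cox8c fit these names but were not among the protein-coding genes of the table, so they could not be analysed.

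Oxidative phosphorylation passes electrons from NADH through complex I, or from succinate through complex II, to ubiquinone, then through complex III and cytochrome c to complex IV, which reduces oxygen. Complexes I, III and IV pump protons across the inner membrane, and complex V, the ATP synthase, uses their return to make ATP. Complexes I, III, IV and V each combine nuclear-encoded subunits with core subunits encoded in mitochondrial DNA, whereas complex II is entirely nuclear. Mitochondrial genes are read as long transcripts of the whole circle that are then cut apart, so most of them share a promoter.

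RNA was sequenced from frozen tumors of 1 mouse sarcoma line, BVMA01R, in 4 groups of 3 libraries: ADI-PEG20 plus chloroquine, ADI-PEG20, chloroquine, and untreated. All groups, untreated included, carry the labelled genotype Myf5-Cre, p53-/-, Ass1-/-, and the mice are female C57BL/6J; ages, doses and times of treatment are not given in the labels used here. ADI-PEG20 is a PEGylated arginine deiminase that removes arginine, which cells without Ass1 (argininosuccinate synthase) cannot make, and chloroquine raises lysosomal pH and blocks autophagy. Whether every library came from its own mouse is not given, so p-values measure only the spread between these samples, which may be technical. These are bulk tumors with host cells: fewer cells of a type and less RNA per cell cannot be told apart. Ass1 stood at 6.83 to 18.8 CPM, reads scaled to a common library size and Trp53 at 13.03 to 26.8 CPM over the 12 libraries, and whether host cells or undeleted exons gave these reads was not tested. Markers of the labelled muscle lineage were present, with Myf5 at 12.2 to 54.3 CPM, Des at 62.0 to 402.5 CPM and Myod1 at 0.759 to 38.8 CPM. All 5 such markers were lower with the combination than in untreated tumors (median log2 difference -0.75) and than with chloroquine (median -1.30). Against chloroquine 3 were lower at an unadjusted p under 0.05, as were 3.67% of all genes. None passed the adjusted threshold, and the part of these markers in the results was not tested. The libraries held 15501998 to 28410940 reads on the genes of the table.

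None of the 100 genes passed an adjusted p of 0.05 in any of the 9 tests (limma on log2 CPM, Benjamini-Hochberg over 16335 genes), and neither did any other gene of the table. At an unadjusted p under 0.05, 6 members differed between ADI-PEG20 plus chloroquine and untreated tumors (1 higher, 5 lower), against 8.65% of all genes (4.7% higher, 3.95% lower). Between ADI-PEG20 and untreated tumors 4 members did (1 higher, 3 lower), against 8.31% of all genes (5.17% higher, 3.13% lower), and between chloroquine and untreated tumors 1 did, against 3.4%. The 3 comparisons share the untreated libraries. The combination set against ADI-PEG20 alone gave 2 members (3.42% of all genes), and set against chloroquine alone gave 6 (6.78% of all genes). For the interaction (combination minus chloroquine, less ADI-PEG20 minus untreated) the count was 2, against 4.26%. Pooled over chloroquine states, ADI-PEG20 gave 10 members (4 higher, 6 lower), against 9.8% of all genes (5.42% higher, 4.38% lower), and chloroquine pooled over ADI-PEG20 states gave 1, against 2.23%. In the moderated F test over all groups, 1 member did, Cox7a2l, with unadjusted p = 0.0232 and adjusted p = 0.860, against 5.72% of all genes. The members' shares were below or near the share of all genes in each of these tests.

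The measurements bound the size of most differences. The 95% confidence interval of the log2 difference lay within 1 log2 unit, or 2-fold, in 93 of 100 members for the combination against untreated, in 89 for ADI-PEG20 against untreated and in 88 for chloroquine against untreated. Among all genes the shares were 59.7%, 59% and 62.5%. The intervals are widest for the scarce or variable genes Cox6a2, Ndufa4l2 and mt-Atp8. The median standard deviation (SD) over the 12 libraries was 0.252 log2 units for the nuclear members, 0.384 for the mitochondrial members and 0.343 for all genes.

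As a group, the nuclear genes sat within 0.24 log2 units of their own mean in each library, and the mitochondrial genes ranged further. Each gene's log2 CPM was set against its mean over the 12 libraries, and the median over the genes was taken per library. For the 87 nuclear genes this median was 0.04, 0.11 and 0.001 in ADI-PEG20 plus chloroquine tumors, -0.20, -0.05 and 0.13 in ADI-PEG20 tumors, -0.0005, 0.04 and -0.14 in chloroquine tumors, and 0.24, -0.06 and -0.01 in untreated tumors. The highest library was thus untreated 1 and the lowest ADI-PEG20 1, and every pair of groups overlapped. For the 13 mitochondrial genes it was -0.02, 0.44 and 0.17 with the combination, -0.67, 0.23 and 0.07 with ADI-PEG20, -0.34, 0.15 and -0.28 with chloroquine, and 0.53, -0.42 and 0.22 in untreated tumors. Here too untreated 1 was highest and ADI-PEG20 1 lowest, and the spread within the ADI-PEG20 and the untreated groups (SD 0.480 and 0.485, n = 3 each) exceeded the differences between group means. Between same-numbered libraries, the combination lay above chloroquine in all 3 pairs for both sets of genes. The labels do not say what a shared number marks. This pairing was picked from correlations in these same data, so the count is a description only.

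**Figure D1:**
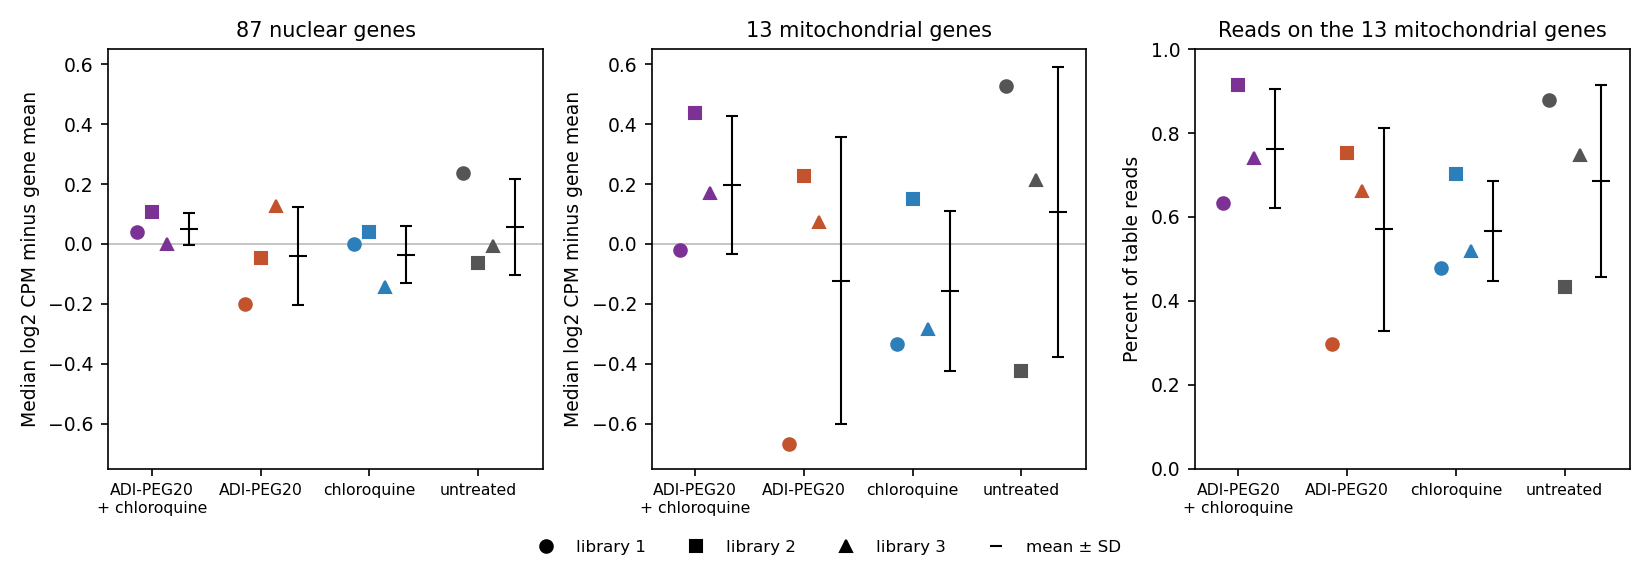
Median over the 87 nuclear (left) and 13 mitochondrial genes (middle) of log2 CPM minus each gene's mean over 12 libraries, and the percent of table reads on the 13 mitochondrial genes (right). Symbols are libraries 1 to 3 of each group and the bar at the right of each group is mean ± SD (n = 3); ADI-PEG20 1 is lowest in all panels, with 0.297% of its reads on mitochondrial genes, and the groups overlap.

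Log2 differences were also taken gene by gene. In ADI-PEG20 against untreated tumors the median was -0.14 over nuclear members, of which 26 were higher and 61 lower, and -0.20 over mitochondrial members, of which 2 were higher and 11 lower, beside -0.01 over all genes, of which 48.7% were higher and 51.3% lower. In chloroquine against untreated tumors it was -0.11 over nuclear members (25 higher, 62 lower) and -0.23 over mitochondrial members (2 higher, 11 lower), beside -0.004 over all genes (49.3% higher, 50.7% lower). With the combination the medians against untreated were 0.01 for nuclear and 0.14 for mitochondrial members, beside 0.01 over all genes (50.8% higher, 49.2% lower). The mitochondrial median for ADI-PEG20 against untreated changed sign with a single library: it was 0.08 without ADI-PEG20 1 and 0.01 without untreated 1. Without untreated 2 it kept its sign, at -0.47. For the combination against untreated it was -0.18 without untreated 2. The interaction had a median of 0.19 over nuclear members (67 of 87 above 0) and 0.60 over mitochondrial members (11 of 13 above 0), beside 0.004 over all genes (50.4% above 0, 49.6% below), and the mitochondrial value was 0.31 without ADI-PEG20 1 and 0.87 without untreated 2. Members share libraries, so these counts are not counts of independent events.

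Beside these values, the libraries differed in Gm26917, a noncoding gene that took 22.8% of the reads in ADI-PEG20 1, 16.4% in untreated 2, and 5.09% to 9.86% in the others. The mitochondrial share of reads was lowest in those 2 libraries, 0.297% (95% Wilson interval 0.294 to 0.299) in ADI-PEG20 1 and 0.433% (0.430 to 0.436) in untreated 2, and 0.479% to 0.914% in the others. These intervals cover counting error only. The shares are of all table reads, Gm26917 included, so reads on Gm26917 lower the mitochondrial share by construction. With library size taken without mitochondrial genes and Gm26917, the mitochondrial medians against untreated were 0.22 (combination), -0.19 (ADI-PEG20) and -0.21 (chloroquine). The nuclear medians were 0.09, -0.13 and -0.09, beside 0.09, 0.005 and 0.01 over all genes. Beyond this change of scaling, the part of Gm26917 in the results was not tested. Without ADI-PEG20 1 and untreated 2 the mitochondrial medians were -0.18 for the combination, -0.18 for ADI-PEG20 and -0.51 for chloroquine, each against untreated.

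**Figure D2:**
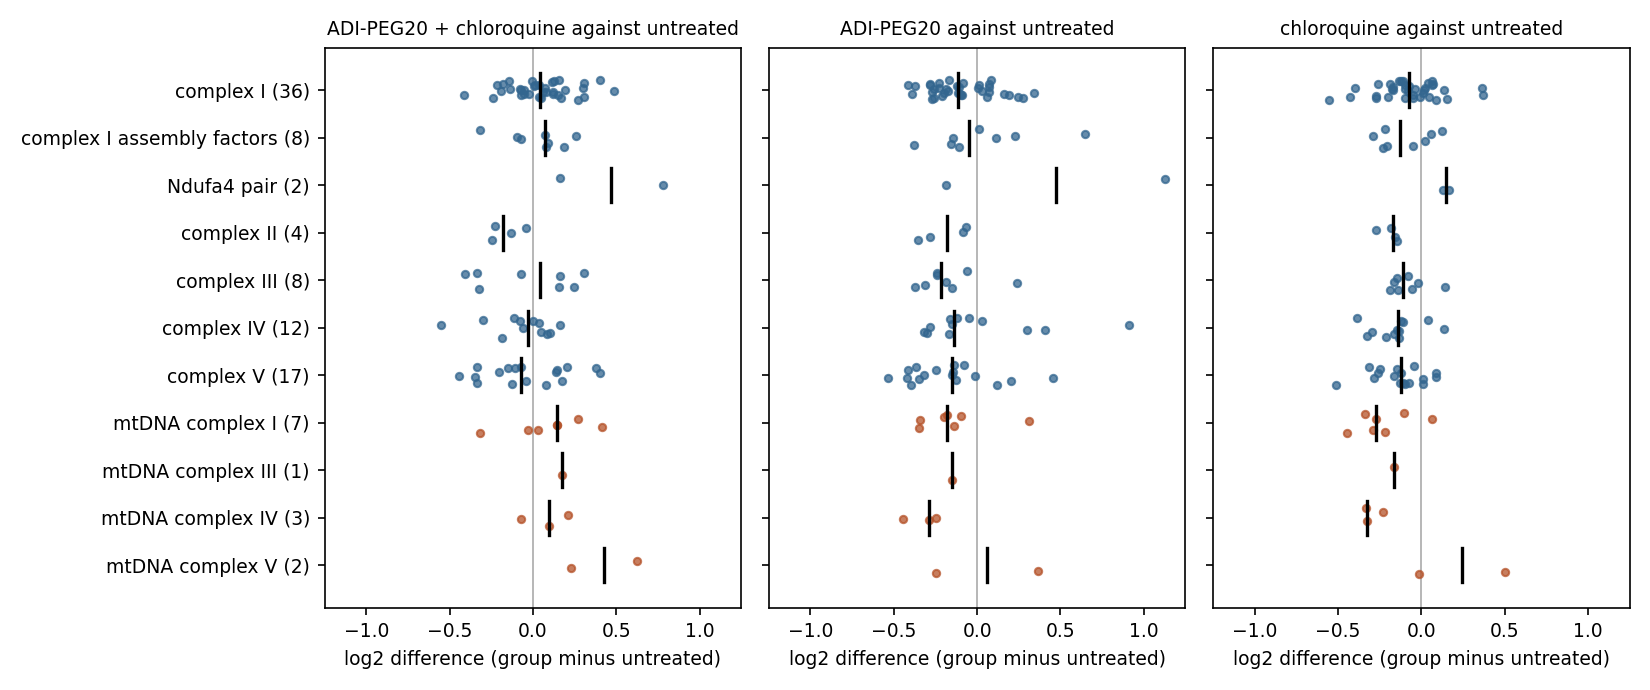
Log2 difference of each member (points) from untreated tumors in 3 comparisons, with members grouped by complex and the number of genes in parentheses; vertical bars are medians, blue is nuclear and orange is mitochondrial DNA. Most points lie within 0.5 log2 units of 0, and the point farthest to the right is Ndufa4l2 in ADI-PEG20 tumors at 1.13.

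Complex I is the NADH dehydrogenase, and its 36 nuclear genes showed the smallest shift of the nuclear complexes in chloroquine against untreated tumors, with a median of -0.08. The median was 0.04 with the combination (22 higher, 14 lower) and -0.11 with ADI-PEG20 (13 higher, 23 lower), each against untreated. Ndufv1 (chromosome 19, positions 4007384 to 4012806 of GRCm38, minus strand) binds the FMN that takes electrons from NADH. It had 54.7, 60.8 and 62.9 CPM in ADI-PEG20 tumors, against 72.6, 74.0 and 69.9 CPM in untreated tumors. These libraries did not overlap, and the log2 difference was -0.28 ± 0.13 (SE; unadjusted p = 0.0537, adjusted p = 0.598, limma). In the table, 10.1% of all genes did not overlap between these 2 groups, as did 9 of the 100 members. Ndufs1, Ndufs7 and Ndufv2, further core subunits that hold iron-sulfur clusters, had log2 differences of -0.20, -0.19 and -0.28 in the same comparison.

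Ndufb3, an accessory subunit of the membrane arm (chromosome 1, 58586384 to 58595964, plus strand), had the largest log2 difference among members with an unadjusted p under 0.05 in the 5 pairwise comparisons. It had 13.8, 10.8 and 13.5 CPM with the combination, 7.55, 10.4 and 14.2 CPM with ADI-PEG20, 8.54, 8.16 and 6.41 CPM with chloroquine, and 10.99, 9.58 and 13.5 CPM in untreated tumors. The 3 chloroquine libraries lay below every combination and every untreated library. The log2 difference was 0.72 ± 0.25 (SE; unadjusted p = 0.0126, adjusted p = 0.601, limma) for the combination against chloroquine and -0.55 ± 0.25 (unadjusted p = 0.0458, adjusted p = 0.999) for chloroquine against untreated. Between the combination and chloroquine 18.4% of all genes did not overlap, as did 21 members. Of these 21, 19 were higher with the combination, where 8.78% of all genes were, and 2 were lower, where 9.57% of all genes were. Between chloroquine and untreated, 4 members did not overlap, against 7.41% of all genes.

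Ndufa7, another accessory subunit, had 35.4, 40.3 and 38.5 CPM with the combination, against 18.2, 32.4 and 34.3 CPM with ADI-PEG20. The lowest combination library exceeded the highest ADI-PEG20 library by about 1 CPM. The log2 difference was 0.48 ± 0.22 (SE; unadjusted p = 0.0473, adjusted p = 0.894, limma), and against chloroquine, with 26.4, 28.3 and 23.7 CPM, it was 0.54 ± 0.22 (adjusted p = 0.690). Ndufa9, which binds NADPH at the junction of the arms, had 42.5, 41.2 and 37.2 CPM with the combination, against 23.7, 30.6 and 34.2 CPM with ADI-PEG20, a log2 difference of 0.46 ± 0.21 (adjusted p = 0.894). Its untreated libraries, at 42.9, 25.2 and 40.4 CPM, spanned nearly the whole range. In this comparison 12 members did not overlap, against 9.16% of all genes. Ndufs8, a core iron-sulfur subunit, had 53.0, 48.8 and 43.4 CPM with the combination, against 38.8, 39.7 and 32.9 CPM with chloroquine, a log2 difference of 0.38 ± 0.15 (adjusted p = 0.688). Further genes with small p-values, none passing the test, were the complex I accessory subunits Ndufa6 and Ndufb4 and the complex V subunit Atp5mpl, with log2 differences of -0.26, -0.43 and -0.51 for chloroquine against untreated. For the combination against ADI-PEG20 they were the accessory subunits Ndufa3 and Ndufb6, at 0.57 and -0.44, and the complex III subunit Uqcrb, at 0.56.

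The 8 Ndufaf assembly factors had a median of 0.07 with the combination, -0.05 with ADI-PEG20 and -0.13 with chloroquine, each against untreated. Ndufaf3 was the gene with the widest differences, 0.65 for ADI-PEG20 against untreated and -0.71 for the combination against ADI-PEG20. It averaged 3.08 CPM, and its adjusted p was 0.894 in the second of these comparisons.

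Complex II is succinate dehydrogenase, which also serves in the tricarboxylic acid cycle. All 4 of its genes were lower than untreated in each of the 3 comparisons, with log2 differences of -0.24 to -0.04 for the combination, -0.36 to -0.06 for ADI-PEG20 and -0.27 to -0.14 for chloroquine, and none passed the test. The untreated libraries are shared by all 3. Sdha, the flavoprotein that oxidises succinate, had 79.2, 81.9 and 83.4 CPM in ADI-PEG20 tumors, against 114.7, 90.2 and 94.4 CPM in untreated tumors. These did not overlap, but the log2 difference of -0.28 ± 0.13 (SE) had an unadjusted p of 0.0547 and an adjusted p of 0.598 (limma). Sdhb, the iron-sulfur subunit, averaged 61.5 CPM and differed by -0.04, -0.06 and -0.14 for the combination, ADI-PEG20 and chloroquine. The membrane anchors Sdhc and Sdhd differed by -0.24 and -0.23 for the combination.

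Complex III, the cytochrome bc1 complex, held members on both sides. Uqcrc1, a core protein on the matrix side (chromosome 9, 108936633 to 108949623, plus strand), had 76.4, 75.8 and 65.9 CPM with the combination, 90.7, 79.2 and 74.5 CPM with ADI-PEG20, 95.5, 90.4 and 87.02 CPM with chloroquine, and 109.5, 96.6 and 83.65 CPM in untreated tumors. The combination libraries lay below all untreated and all chloroquine libraries. The log2 difference from untreated was -0.40 ± 0.14 (SE; 95% interval -0.71 to -0.10, unadjusted p = 0.0128, adjusted p = 0.469, limma), the smallest p of any member in that comparison. Between these 2 groups 8 members did not overlap, against 15.4% of all genes.

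Uqcrq, a small subunit near the membrane (chromosome 11, 53427922 to 53430831, minus strand), lay the other way. It had 64.8, 72.6 and 69.9 CPM with the combination, 58.1, 65.8 and 74.3 CPM with ADI-PEG20, 60.3, 51.6 and 49.5 CPM with chloroquine, and 56.9, 53.8 and 56.6 CPM in untreated tumors. The combination libraries exceeded every chloroquine and untreated library. The log2 difference of the combination from untreated was 0.31 ± 0.14 (SE; unadjusted p = 0.0438, adjusted p = 0.567, limma), and that of ADI-PEG20 pooled over chloroquine states was 0.30 ± 0.10 (unadjusted p = 0.00858, adjusted p = 0.323). Uqcrfs1, the Rieske iron-sulfur protein, was lower, with a pooled log2 difference of -0.27 ± 0.10 (adjusted p = 0.392). Uqcrh, the hinge protein for cytochrome c1, had 28.4, 33.2 and 39.8 CPM in ADI-PEG20 tumors, against 52.8, 41.4 and 37.2 CPM in untreated tumors, which overlap. The 8 genes of the complex thus had a median of 0.04 for the combination, with 4 higher and 4 lower.

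Complex IV is cytochrome c oxidase. Cox4i1, the ubiquitous form of its largest nuclear subunit (chromosome 8, 120668222 to 120674207, plus strand), had 98.3, 111.8 and 101.5 CPM with the combination, 98.5, 106.2 and 105.8 CPM with ADI-PEG20, 125.5, 105.4 and 111.5 CPM with chloroquine, and 132.8, 132.2 and 118.5 CPM in untreated tumors. All 6 libraries with ADI-PEG20 lay below all 3 untreated libraries, and they overlapped with chloroquine. The log2 difference from untreated was -0.30 ± 0.12 (SE; adjusted p = 0.546, limma) for the combination and -0.30 ± 0.12 (adjusted p = 0.562) for ADI-PEG20. Cox7a2l, which has been linked to supercomplexes of complexes III and IV, had 65.2, 74.0 and 66.3 CPM with the combination, 70.9, 118.8 and 73.5 CPM with ADI-PEG20, 50.8, 56.4 and 47.2 CPM with chloroquine, and 69.0, 75.4 and 51.3 CPM in untreated tumors. The chloroquine libraries were lower than those of both groups with ADI-PEG20, and 1 ADI-PEG20 library stood far above the rest. Pooled over chloroquine states, the log2 difference for ADI-PEG20 was 0.41 ± 0.14 (adjusted p = 0.351). Cox5a, Cox6b1, Cox7a2, Cox7b and Cox8a, other ubiquitous subunits, averaged 33.8, 35.0, 20.9, 35.3 and 78.6 CPM. For the combination, ADI-PEG20 and chloroquine against untreated, Cox7b differed by 0.16, -0.16 and -0.39 and Cox5a by -0.06, 0.03 and -0.14. Of all Cox7a2l runs of 50 bases, 13.8% also occur in the annotated pseudogene Gm6969, so its reads may be split.

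**Figure D3:**
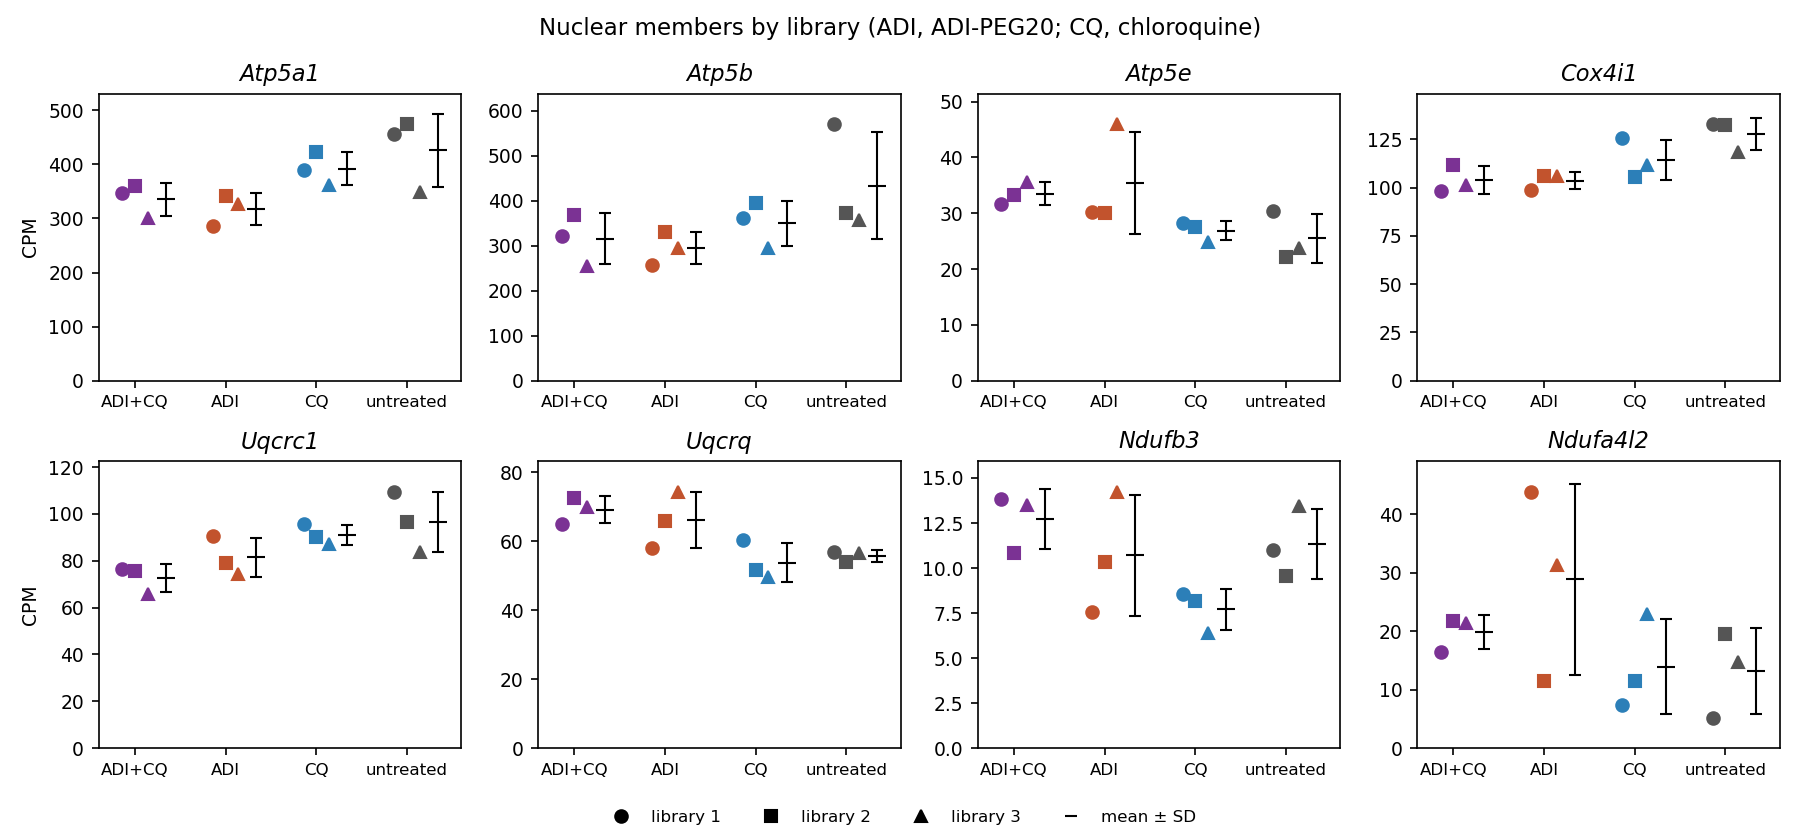
CPM of 8 nuclear members in each library, with symbols for libraries 1 to 3 and mean ± SD (n = 3) at the right of each group; axes start at 0. Cox4i1 is at most 111.8 CPM in all 6 libraries with ADI-PEG20 and at least 118.5 CPM in the 3 untreated libraries, and Ndufa4l2 spans 5.19 to 43.8 CPM.

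Complex V makes ATP, and its catalytic head gave the highest CPM of the nuclear members. Atp5a1 and Atp5b encode the alpha and beta subunits that form the catalytic ring. Atp5a1 (chromosome 18, 77773729 to 77782869, plus strand) had 346.9, 359.2 and 301.1 CPM with the combination, 285.4, 342.5 and 327.4 CPM with ADI-PEG20, 390.5, 423.4 and 362.3 CPM with chloroquine, and 455.9, 474.3 and 348.9 CPM in untreated tumors. The ADI-PEG20 libraries lay below all untreated libraries, and the combination overlapped with them through untreated 3. The log2 difference for ADI-PEG20 was -0.41 ± 0.15 (SE; 95% interval -0.74 to -0.09, unadjusted p = 0.0167, adjusted p = 0.524, limma), and for the combination it was -0.34 ± 0.15 (adjusted p = 0.566).

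Atp5b (chromosome 10, 128083273 to 128090391, plus strand) had 321.9, 369.0 and 255.7 CPM with the combination, 258.1, 329.7 and 295.2 CPM with ADI-PEG20, 360.7, 394.4 and 295.3 CPM with chloroquine, and 570.0, 373.2 and 357.2 CPM in untreated tumors. Untreated 1 was far above the other libraries. The log2 difference was -0.53 ± 0.20 (SE; unadjusted p = 0.0201, adjusted p = 0.543, limma) for ADI-PEG20 and -0.44 ± 0.20 (adjusted p = 0.572) for the combination. Atp5c1, the gamma subunit that turns inside the ring, differed less, by -0.14 for ADI-PEG20 and 0.20 for the combination. Atp5d, the delta subunit of the central stalk, differed by -0.42 for ADI-PEG20, -0.31 for chloroquine and -0.35 for the combination.

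Atp5e, the epsilon subunit of the same stalk, was on the other side. It had 31.6, 33.3 and 35.7 CPM with the combination, 30.2, 30.1 and 45.9 CPM with ADI-PEG20, 28.2, 27.5 and 24.9 CPM with chloroquine, and 30.5, 22.2 and 23.8 CPM in untreated tumors. The combination libraries lay above all chloroquine and untreated libraries. For ADI-PEG20 against untreated the log2 difference was 0.46 ± 0.19 (SE; unadjusted p = 0.0307, adjusted p = 0.569, limma). The c-ring subunit is encoded by Atp5g1, Atp5g2 and Atp5g3, which make the same mature protein. They averaged 43.4, 72.1 and 72.5 CPM, and for ADI-PEG20 against untreated they differed by 0.12, -0.32 and -0.14. Atp5s, which encodes a coupling factor of the complex, was the scarcest nuclear member after Cox6a2, at 1.27 to 3.47 CPM. Of the Atp5g2 runs of 50 bases, 36.7% also occur in the pseudogene Gm10175.

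A pair of members are tissue or hypoxia forms, and they were the most variable nuclear genes. Ndufa4l2 is induced by low oxygen and is related to Ndufa4, a subunit now counted with complex IV. It had 16.5, 21.7 and 21.4 CPM with the combination, 43.8, 11.5 and 31.3 CPM with ADI-PEG20, 7.42, 11.5 and 23.0 CPM with chloroquine, and 5.19, 19.5 and 14.8 CPM in untreated tumors. The groups overlapped, with ADI-PEG20 spanning nearly the whole range. The log2 difference was 1.13 ± 0.54 (SE; unadjusted p = 0.0584, adjusted p = 0.606, limma) for ADI-PEG20 and 0.78 ± 0.54 (adjusted p = 0.716) for the combination, each against untreated. Ndufa4 itself averaged 28.1 CPM and differed by -0.19 and 0.16.

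Cox6a2 is the heart and skeletal muscle form of a complex IV subunit, whose ubiquitous form is Cox6a1. It had 0.685, 0.856 and 0.637 CPM with the combination, 5.88, 0.895 and 1.57 CPM with ADI-PEG20, 1.23, 0.280 and 1.81 CPM with chloroquine, and 2.64, 0.245 and 1.72 CPM in untreated tumors. The lowest library had 4 reads. Skeletal muscle markers varied beside it: the 17 of them in the table summed to 8610 CPM in ADI-PEG20 1 and 6647 CPM in untreated 1, where Cox6a2 was also highest. Over the groups the sum spanned 718 to 1053 CPM with the combination, 483 to 8610 CPM with ADI-PEG20, 3233 to 4281 CPM with chloroquine, and 914 to 6647 CPM in untreated tumors. Ttn gave much of this sum, at 484 to 878 CPM with the combination and 318 to 4973 CPM with ADI-PEG20. It was at 2264 to 3217 CPM with chloroquine and 696 to 3819 CPM in untreated tumors. All 17 markers had a log2 difference below 0 for the combination against untreated, with a median of -2.14 and no adjusted p under 0.05. Ckm, a defining muscle gene, was at 0.171 to 0.637 CPM in the combination libraries, and as low in ADI-PEG20 2 (0.384 CPM), ADI-PEG20 3 (0.218 CPM) and untreated 2 (0.246 CPM). It was at 1.49 to 4.11 CPM with chloroquine and 3.06 CPM in untreated 3, against 80.2 CPM in ADI-PEG20 1 and 85.3 CPM in untreated 1. The part of the muscle markers in the members' values was not tested. Cox6a1 averaged 81.5 CPM and differed by -0.19 for the combination, -0.05 for ADI-PEG20 and 0.04 for chloroquine.

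Markers of other cells were summed as well, and none passed an adjusted p of 0.05 in any comparison. The 11 macrophage markers summed to 1654 to 2104 CPM with the combination, 1383 to 1998 CPM with ADI-PEG20, 1088 to 1358 CPM with chloroquine and 1130 to 1347 CPM in untreated tumors. All 11 were higher with the combination than in untreated tumors, with a median log2 difference of 0.72, and 9 had an unadjusted p under 0.05, against 4.7% of all genes in that direction, but the smallest adjusted p was 0.263 (limma). With ADI-PEG20 alone all 11 were also higher than untreated (median 0.62). Of these, 7 had an unadjusted p under 0.05, against 5.17% of all genes in that direction. With chloroquine 8 were higher and 3 lower (median 0.16). The 8 adipocyte markers were highest in 1 library, ADI-PEG20 1, at 356 CPM, against 31.6 to 142 CPM in the other libraries. All 8 were higher than untreated with ADI-PEG20, 7 with the combination and 2 with chloroquine. For ADI-PEG20 pooled over chloroquine states all 8 were higher, with a median log2 difference of 1.18. The smallest adjusted p among them was 0.0655 (limma) in that pooled comparison. The 6 erythroid markers were all lower in ADI-PEG20 than in untreated tumors (median log2 difference -1.56) and all higher in the combination than in ADI-PEG20 (median 1.71). The 9 T cell markers summed to at most 41.0 CPM in any library. All 9 were higher than untreated with ADI-PEG20 (median log2 difference 1.29) and with chloroquine (0.90), and 8 with the combination (0.72). Their part in the members' values was not tested.

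By the reads counted at each gene, the 13 genes of mitochondrial DNA spanned a wide range, and 7 of them lay above every nuclear member. Per kilobase of annotated exon, mt-Co1 had 1863 RPKM (CPM per kilobase) on average, mt-Nd1 851, mt-Cytb 831, mt-Nd5 452, mt-Nd2 260, mt-Nd4 258 and mt-Nd6 162. The remaining genes ranged from 104 RPKM for mt-Co2 to 6.52 RPKM for mt-Atp8. Of the runs of 50 bases in mt-Co2, mt-Co3, mt-Atp6, mt-Nd4l and mt-Nd3, 98.0% to 100% also occur in other annotated genes. This share was 62.2% for mt-Nd4, 51.1% for mt-Co1, 8.19% for mt-Nd2 and 7.61% for mt-Nd5. For mt-Nd1, mt-Cytb, mt-Nd6 and mt-Atp8 it was 0%. The part of shared sequence in the order of these levels was not tested. The nuclear members with the highest levels on this scale were Cox8a at 127 RPKM, Atp5a1 at 117 RPKM and Cox6a1 at 116 RPKM. All 13 together took 0.634%, 0.914% and 0.741% of the reads with the combination, 0.297%, 0.754% and 0.663% with ADI-PEG20, 0.479%, 0.702% and 0.518% with chloroquine, and 0.879%, 0.433% and 0.747% in untreated tumors.

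The genes annotated on the plus strand varied together. mt-Co1, the catalytic subunit of complex IV (mitochondrial positions 5328 to 6872, plus strand), had 2679, 3595 and 3080 CPM with the combination, 1648, 2924 and 2823 CPM with ADI-PEG20, 2204, 3253 and 2389 CPM with chloroquine, and 4025, 2491 and 3420 CPM in untreated tumors. All groups overlapped, and the log2 difference for ADI-PEG20 against untreated was -0.44 ± 0.26 (SE; adjusted p = 0.639, limma). mt-Nd4, a proton-pumping subunit of complex I (10167 to 11544, plus strand), had 366.3, 480.4 and 431.7 CPM with the combination, against 275.2, 354.1 and 244.6 CPM with chloroquine. These libraries did not overlap, and the log2 difference was 0.56 ± 0.25 (unadjusted p = 0.0455, adjusted p = 0.721). mt-Cytb, the only mitochondrial subunit of complex III (14145 to 15288, plus strand), had 878, 1319 and 1035 CPM with the combination, 600, 1067 and 957 CPM with ADI-PEG20, 752, 1047 and 755 CPM with chloroquine, and 1327, 582 and 1086 CPM in untreated tumors. mt-Nd1, mt-Nd2 and mt-Nd5, further complex I subunits, spanned 433 to 1146.5 CPM, 163 to 400 CPM and 550 to 1091.5 CPM over the 12 libraries. mt-Nd3 and mt-Nd4l, the shortest complex I genes, spanned 1.35 to 6.68 CPM and 6.27 to 14.4 CPM. As with mt-Co1, untreated 1 was highest for mt-Cytb, while the lowest library of mt-Cytb was untreated 2.

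mt-Nd6, the one member annotated on the minus strand (13552 to 14070), did not follow them. It had 55.1, 86.8 and 84.0 CPM with the combination, 72.9, 100.6 and 70.0 CPM with ADI-PEG20, 81.1, 91.5 and 85.0 CPM with chloroquine, and 75.2, 86.7 and 119.5 CPM in untreated tumors. Set against the median log2 CPM of the plus-strand genes in the same library, the difference was -1.23, -1.15 and -0.87 log2 units with the combination, -0.13, -0.72 and -0.98 with ADI-PEG20, -0.35, -0.66 and -0.33 with chloroquine, and -1.38, -0.21 and -0.36 in untreated tumors. The smallest gaps were in ADI-PEG20 1 and untreated 2, the libraries with the most Gm26917. Its log2 difference from untreated was -0.32 ± 0.21 (SE; adjusted p = 0.705, limma) for the combination, where 10 of the 13 mitochondrial genes lay above 0.

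**Figure D4:**
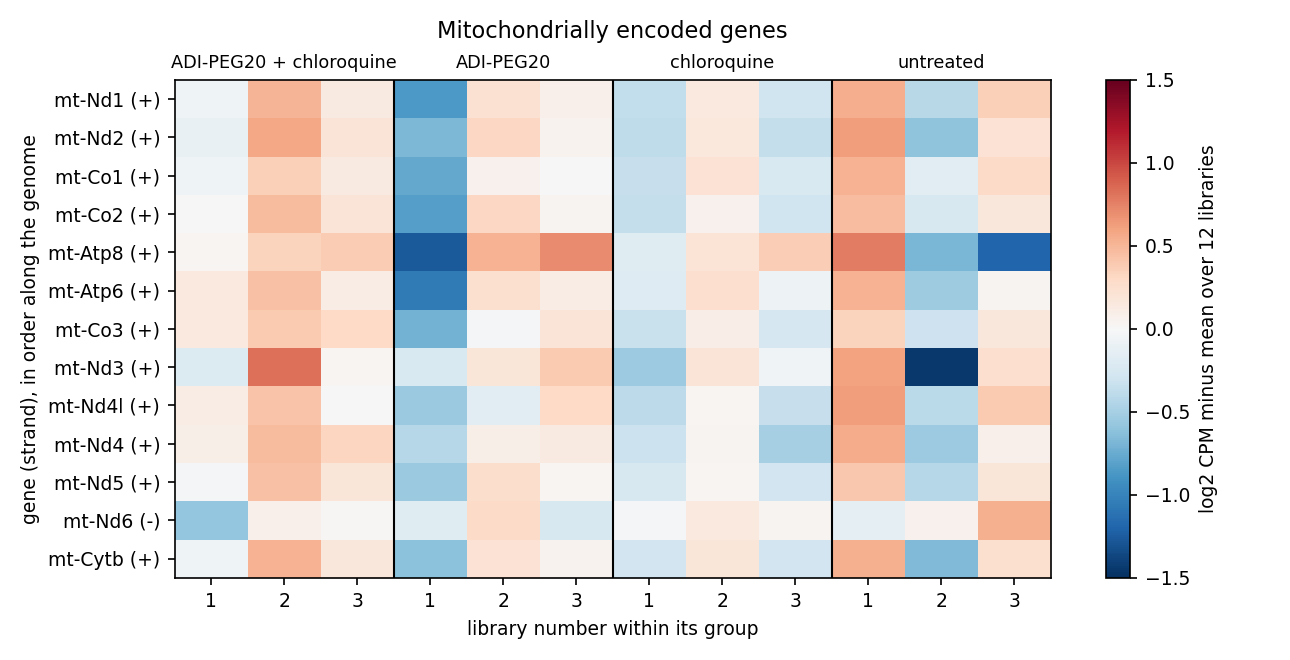
Log2 CPM of the 13 mitochondrial genes minus each gene's mean over 12 libraries, with genes in their order along the genome (strand in parentheses) and libraries 1 to 3 of each group in columns; red is higher and blue lower. The plus-strand genes are low together in ADI-PEG20 1 and untreated 2 and high together in untreated 1, mt-Nd6 does not follow them, and mt-Atp8, the scarcest of the 13, is also low in untreated 3. The median over the 13 genes was -0.34 in chloroquine 1 and -0.28 in chloroquine 3, beside -0.67 in ADI-PEG20 1 and -0.42 in untreated 2.

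Several mitochondrial genes share sequence with each other or with nuclear DNA, and this bears on their levels. mt-Atp8 and mt-Atp6, subunits of the membrane part of complex V, overlap by 43 bases, mt-Atp6 and mt-Co3 by 1, and mt-Nd4l and mt-Nd4 by 7, all on the same strand, while mt-Nd5 and mt-Nd6 overlap by 14 bases on opposite strands. How the counting treated reads in overlaps is not given in the sources used here. The whole of mt-Atp8 (chrM:7766-7969 of GRCm38, plus strand) is shown as annotated in GENCODE M21, with the bases shared with mt-Atp6 in capitals, since it was the scarcest of the 13 mitochondrial genes, at 0.477 to 2.08 CPM.
mt-Atp8: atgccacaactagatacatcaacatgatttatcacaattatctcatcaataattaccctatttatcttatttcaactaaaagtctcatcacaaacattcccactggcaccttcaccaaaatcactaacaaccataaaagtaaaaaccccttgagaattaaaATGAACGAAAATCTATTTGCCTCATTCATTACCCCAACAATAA

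A block on chromosome 1, from 24611535 to 24616197 of GRCm38, holds nuclear copies of 7 of these genes, annotated as pseudogenes. Placed on the gene without gaps, the copies of mt-Co2, mt-Atp6, mt-Co3, mt-Nd4l and mt-Nd4 were identical over 681, 678, 783, 294 and 876 bases. The copy of mt-Nd3, Gm28438, differed at 1 of 345 bases (T3C, counted from 1 at the gene's 5′ end) and that of mt-Co1 at 6 of 492. The stretches around the mt-Nd3 difference are shown because a read must cover that base, in capitals, to tell gene from copy. They are chrM:9459-9481 on the plus strand and chr1:24613097-24613119 on the minus strand.
mt-Nd3: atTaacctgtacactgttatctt
Gm28438: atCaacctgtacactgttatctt

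The copies carried reads in all 12 libraries. Of the reads at either place, the copy held 58.6% for mt-Atp6 (56.2% to 62.2% over the 12 libraries), 56.7% for mt-Co3 (54.1% to 59.8%), 49.0% for mt-Co2 (46.9% to 53.2%), 47.7% for mt-Nd3 (37.6% to 56.0%) and 29.7% for mt-Nd4l (19.9% to 40.8%). For mt-Co1 it was 2.28% (1.90% to 2.70%). For mt-Nd4 it was 4.79%, and the 3 chloroquine libraries, at 5.69%, 6.06% and 6.33%, lay above all others, which ranged from 3.97% to 5.07%. With the copies' reads added, the mitochondrial median for the combination against chloroquine was 0.362, and it was 0.364 without them. The part of this share in the mt-Nd4 difference alone was not tested. The levels of mt-Co2, mt-Atp6, mt-Co3, mt-Nd3 and mt-Nd4l are therefore uncertain. With the copies' reads added, mt-Co2, mt-Atp6 and mt-Co3 were at 206, 116 and 127 RPKM, against 104, 48.0 and 55.1 RPKM without. These sums hold only reads counted at either place. How reads that fit both places were counted is not given, so the sums may fall short of the full levels. The mt-Nd4 copy shared 62.2% of the gene's runs of 50 bases but held 4.79% of the reads, and the reason was not tested. The log2 differences for ADI-PEG20 against untreated were -0.20 at the copy and -0.29 at mt-Co2, -0.23 and -0.24 for mt-Atp6, and -0.24 at both places for mt-Co3. For mt-Nd4l they were further apart, -0.13 at the copy and -0.35 at the gene, and they were -0.36 and -0.44 for mt-Co1, -0.15 and -0.09 for mt-Nd4, and 0.23 and 0.31 for mt-Nd3. With the copies' reads added, no mitochondrial gene passed an adjusted p of 0.05 either.

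**Figure D5:**
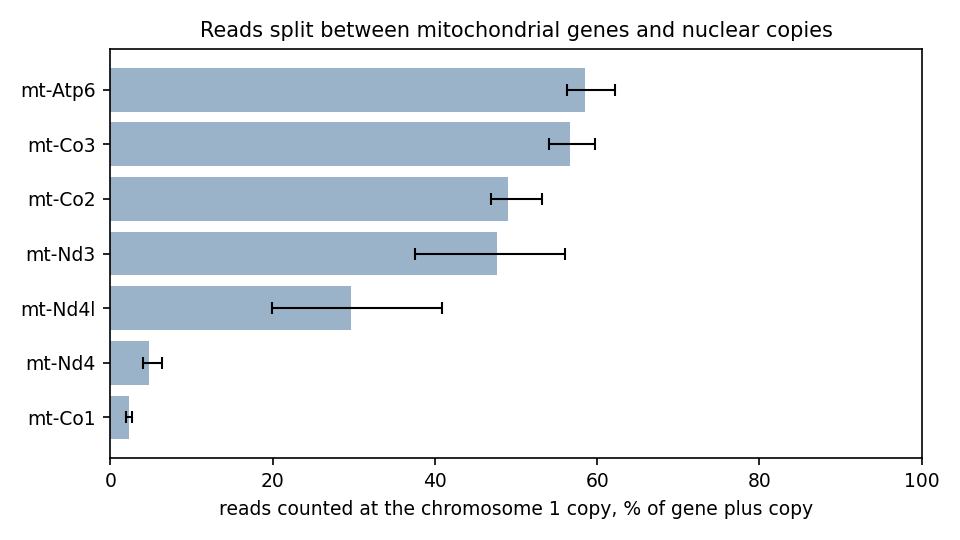
Reads counted at the chromosome 1 copy as a percent of those at gene plus copy, pooled over 12 libraries (bars), with the lowest and highest library (whiskers). The share is 58.6% for mt-Atp6 and 2.28% for mt-Co1, where the copy shares 99.5% and 28.7% of the gene's runs of 50 bases.

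The nuclear members were also compared by promoter sequence, which their choice by name did not use. RefSeq promoters of GRCm38.p6, from 250 bases before to 50 after the start, were at hand for 72 of the 87 nuclear members and for 10881 protein-coding genes of the table. The palindromic motif of NRF1, a factor known to act on respiratory genes, is spelled in capitals in the sequences shown next. It occurred in 7 member promoters (9.72%), among them that of Uqcrc1, against 2.17% of the table's genes. On either strand, for the YY1 motif AAGATGGCG the share was 11.1%, against 3.26%, for the ETS motif CCGGAAG 25%, against 18.7%, and for TATAAA 6.94%, against 9.42%. These shares are descriptions with no test, and a match is not a binding site. The 5 stretches in which the NRF1 motif lies before the start are shown, with the motif in capitals and 10 bases either side: Ndufa11 (chr17:56717692-56717721, plus strand), Ndufaf4 (chr4:24897960-24897989, plus), Cox6a1 (chr5:115349101-115349130, minus), Atp5k (chr5:108434430-108434459, minus) and Atp5g2 (chr15:102671070-102671099, minus).
Ndufa11: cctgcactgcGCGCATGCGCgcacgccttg
Ndufaf4: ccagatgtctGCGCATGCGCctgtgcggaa
Cox6a1: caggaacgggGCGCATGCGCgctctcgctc
Atp5k: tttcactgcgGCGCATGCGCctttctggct
Atp5g2: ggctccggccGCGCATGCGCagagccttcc

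These 5 genes had no common pattern over the groups. For the combination, ADI-PEG20 and chloroquine, each against untreated, the log2 differences were 0.05, -0.09 and -0.19 for Ndufa11, 0.08, 0.11 and -0.23 for Ndufaf4, and -0.19, -0.05 and 0.04 for Cox6a1. They were 0.14, 0.20 and 0.09 for Atp5k and -0.34, -0.32 and -0.26 for Atp5g2.

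Genes of related mitochondrial pathways, in lists outside the members, gave no adjusted p under 0.05 in any comparison. The 19 genes of the tricarboxylic acid cycle and pyruvate dehydrogenase had median log2 differences of -0.13 for the combination, -0.23 for ADI-PEG20 (3 higher, 16 lower) and -0.08 for chloroquine (3 higher, 16 lower), each against untreated, with 0, 3 and 0 genes lower at an unadjusted p under 0.05, against 3.95%, 3.13% and 1.33% of all genes. The 76 mitochondrial ribosomal protein genes, which translate the mitochondrial messages, had medians of 0.05, -0.13 and -0.05. The 28 genes of mitochondrial DNA maintenance, transcription and RNA handling had medians of 0.03, -0.02 and 0.03. The 12 regulators of mitochondrial biogenesis, such as Nrf1 and Esrra, had medians of -0.08, -0.05 and -0.005. The 35 assembly factors outside the name rule had medians of 0.08, -0.05 and 0.01, and the 18 electron carriers, such as Cycs, of -0.09, -0.02 and 0.01.

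The authors' deposited table gave no member an adjusted p under 0.05 in any of its 6 comparisons. Its results for the KEGG oxidative phosphorylation set of 119 genes, of which 92 are members here, list a score of -0.581 for the combination, -1.99 for ADI-PEG20 and -2.58 for chloroquine, each against untreated. In the authors' deposited table the adjusted p-values of these scores were 1, 0.610 and 0.663.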

How the data were processed

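Total RNA of frozen tumors was sequenced after ribosomal RNA depletion, per the labels' protocols. The tools, per the submitters' processing notes, include limma, edgeR, featureCounts 1.4.6-p5 (Subread), STAR 2.5.1a with mm10, Salmon 0.8.2 and bcl2fastq; strand and multi-mapping settings are not given in the sources used here. The authors deposited log2 CPM per gene and library, with log2 fold changes, a signed fold score and p-values per comparison. The authors also deposited results per KEGG set, each with the set size, a score and a one-sided p-value.

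The log2 CPM values gave back whole reads: 100% of values under 2000 reads were whole within 0.02 reads, with 0.5 reads added before the log. Of 16386 lines, 51 were repeats, leaving 16335 genes, each with at least 85 reads in all. A count model was not run; voom weights on the recovered reads were an alternative.

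limma 3.58.1 (R 4.3.3) was fitted to log2 CPM of all 12 libraries with 4 group means and a trend, with no replicate block, two-sided, with Benjamini-Hochberg adjustment over all genes and a threshold of 0.05 (8 residual degrees of freedom). The fit was tested on simulated data. The members and all lists were chosen with earlier results of these data known. Genes are named where they are mitochondrial, tissue or hypoxia isoforms, or catalytic subunits, where they have one of the 8 smallest p in a pairwise comparison, or where they have one of the 3 highest or lowest means. Positions are from GENCODE M21 and promoters from RefSeq GRCm38.p6. The replicate numbers pair the combination with chloroquine by correlation of deviations from group means (0.117, 0.110 and 0.153), a pattern of the data that the labels do not explain. Alternatives were other weights, scalings, pseudocount, filter, samples, a replicate block and other member lists.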

Additional observations from a re-analysis of the deposited data

How the results depend on the processing

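No member passed an adjusted p of 0.05 in the tests run under 23 other settings (all 9 tests, except that fits of only the groups compared covered the 5 pairwise ones), and the smallest adjusted p was 0.117, for ADI-PEG20 pooled over chloroquine states with library quality weights. Adding the reads of the chromosome 1 copies was chosen after seeing the data. With library size as total reads, the median of all genes shifted to 0.17 for the combination against untreated and 0.17 against ADI-PEG20, and the nuclear median was 0.18 (0.01 with the deposited scaling) and 0.26 (0.09). Leaving out 1 library at a time, the nuclear median ranged from -0.09 to 0.09 for the combination against untreated, -0.22 to -0.02 for ADI-PEG20, and -0.15 to -0.01 for chloroquine. The mitochondrial median ranged from -0.18 (without untreated 2) to 0.35 (without untreated 1) for the combination, -0.47 (without untreated 2) to 0.08 (without ADI-PEG20 1) for ADI-PEG20, and -0.51 to -0.04 for chloroquine. Against ADI-PEG20 and against chloroquine, the combination's mitochondrial median ranged from 0.05 to 0.52 and from 0.21 to 0.51, and the nuclear one from 0.01 to 0.17 and from 0.06 to 0.15. The interaction ranged from 0.13 to 0.27 for nuclear and from 0.31 to 0.87 for mitochondrial members; the nuclear value was 0.099 with library quality weights and 0.30 with total reads. Library quality weights also gave -0.06 (nuclear) and -0.10 (mitochondrial) for ADI-PEG20 against untreated, 0.003 and 0.04 for the combination against untreated, and 0.02 and 0.13 for the combination against ADI-PEG20. The cause of these shifts was not tested. Of 18084 values of single members under other settings, 1154 changed sign. Other genes passed the threshold under some settings: for ADI-PEG20 pooled over chloroquine states, 98 with library quality weights, 31 with the replicate block and 144 without ADI-PEG20 1 and untreated 2. For the combination against chloroquine it was 72 with only the groups compared, 15 with quality weights and 22 without both libraries, and against untreated 8 with the block and 17 without both. In the F test it was 1 with quality weights and 12 without both. Leaving out 1 library gave at most 19. With the replicate block, 0 members passed in each comparison. Same-numbered libraries correlated above 0.1 in 9 of 18 pairs (-0.05 to 0.20), and libraries of different numbers and groups ranged from -0.24 to 0.19. Of 12 libraries, 9 correlated best with their own number, a hint from the data and not from the design. Pairing was taken only where every pair of 2 groups was above 0.1, which held for the combination and chloroquine alone; there the block gave 0 members.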
